A study of Mus musculus with 2 samples.

Results

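The genes described are 8 members of the Meis, Pbx and Pknox families of homeobox cofactors, namely Meis1, Meis2, Meis3, Pbx2, Pbx3, Pbx4, Pknox1 and Pknox2. They were taken by gene name from the 55536 genes of the GENCODE M21 annotation, and all 8 were found. RNA came from mouse midbrain at embryonic day 12.5, strain B6NCrl, male and female embryos pooled. Replicate 1 held tissue from 120 embryos and replicate 2 from 88, and both belong to the only group of the study. Each library was made from 10 ng of RNA by oligo-dT priming, with Nextera tagmentation and ERCC spike-in RNAs. Levels are in TPM (a share of all transcripts, scaled by transcript length and library size), and differences between the pools come from expected counts, which are estimated numbers of reads.

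All of these genes code transcription factors with a TALE homeodomain, a DNA-binding fold with extra residues in the loop between the first helix and the second. Pbx proteins bind DNA together with Hox and other homeodomain proteins. Meis and Pknox (also called Prep) proteins bind Pbx through their N-terminal parts, and this pairing helps to bring Pbx into the nucleus and keep it stable. In the chick, Meis2 has been described as a partner of Otx2 in the development of the tectum, the roof of the midbrain.

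The homeodomain ends in a recognition helix that lies in the major groove of DNA. Codons of a fixed residue pattern within it are shown for every gene, because the presence of this stretch in a transcript is used below to sort transcripts. Capitals mark the 24 bases of this pattern, called the helix codons below, which need not cover the whole helix. The bases come from the GENCODE M21 transcripts (assembly mm10, 5′ to 3′ along each gene).
Meis1 (chr11:18885615-18905708, minus strand): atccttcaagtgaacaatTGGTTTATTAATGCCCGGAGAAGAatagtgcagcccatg
Meis2 (chr2:115868767-115921691, minus strand): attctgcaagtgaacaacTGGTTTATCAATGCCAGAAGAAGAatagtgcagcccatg
Meis3 (chr7:16183848-16184074, plus strand): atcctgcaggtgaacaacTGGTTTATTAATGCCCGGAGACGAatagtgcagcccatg
Pknox1 (chr17:31602843-31603223, plus strand): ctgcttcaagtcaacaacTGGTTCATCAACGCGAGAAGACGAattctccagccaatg
Pknox2 (chr9:36894462-36895330, minus strand): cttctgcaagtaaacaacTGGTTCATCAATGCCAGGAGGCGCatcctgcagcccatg
Pbx2 (chr17:34594709-34594848, plus strand): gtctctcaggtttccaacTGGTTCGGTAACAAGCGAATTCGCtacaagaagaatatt
Pbx3 (chr2:34178295-34204788, minus strand): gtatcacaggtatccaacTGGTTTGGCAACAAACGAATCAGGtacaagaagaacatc
Pbx4 (chr8:69866595-69870076, plus strand): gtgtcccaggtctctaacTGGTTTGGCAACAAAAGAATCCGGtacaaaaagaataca

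These stretches are spliced, so each coordinate span holds an intron. In all 3 Meis genes and both Pknox genes an intron splits the first codon in capitals after its 2 leading bases. It runs from 170 bases in Meis3 to 52868 bases in Meis2. In the 3 Pbx genes the capitals lie within 1 exon, the sixth, and the intron falls in the lower-case bases printed ahead of them. These places are given relative to the capitals, not to the whole helix. Over the 63 codons of the homeodomain, the encoded residues were identical at 61 to 62 positions between Meis genes, at 59 between Pknox1 and Pknox2 and at 56 to 61 between Pbx genes. Meis and Pknox shared 44 or 45 residues, Meis and Pbx 27 or 28, and Pbx and Pknox 21 to 23. At the level of bases the closest pair was Meis1 and Meis3, with 84.7% identity, so the homeoboxes differ in sequence even where the encoded domains are nearly the same.

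**Figure D1:**
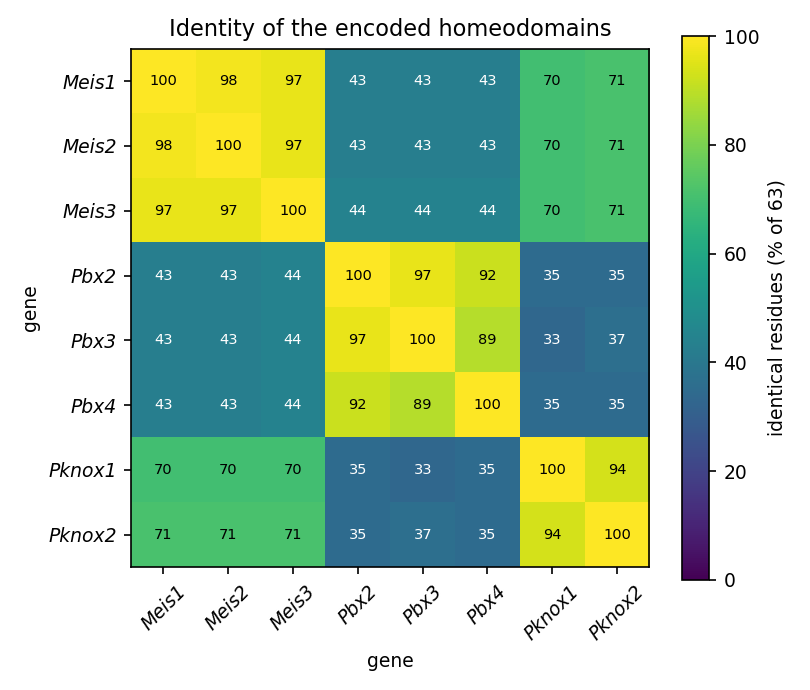
Percent of 63 homeodomain residues that are identical between each pair of genes, from the M21 coding sequences (rows and columns are genes, colour and number give percent). Pairs within a family reach 89% to 98%, Meis with Pknox 70% to 71%, and Pbx with either family 33% to 44%.

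All 8 genes reached 1 TPM in both libraries, as did 59.4% of the protein-coding genes of the annotation. Together they summed to 340 TPM in replicate 1 and 367 TPM in replicate 2, with a mean of 354 ± 19.3 TPM (SD, n = 2). The 3 Meis genes gave 183 and 207 TPM, the 3 Pbx genes 113 and 114 TPM, and the 2 Pknox genes 43.9 and 46.5 TPM in replicates 1 and 2. In this bulk tissue, fewer cells with a transcript and less RNA per cell cannot be told apart.

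Meis3 (chr7:16175090-16186504) was the highest of the 8, with 93.9 TPM in replicate 1 and 100.01 TPM in replicate 2, or 96.9 ± 4.34 TPM (SD, n = 2). It held 51.3% and 48.2% of the summed Meis TPM, and its mean lay above 86.9% of the 13083 protein-coding genes detected in both libraries. Meis2 (chr2:115863064-116065839) had 58.1 and 72.2 TPM, or 65.2 ± 9.96 TPM, the widest spread among the genes. The deposited bounds on its TPM were 55.7 to 64.5 in replicate 1 and 69.9 to 76.9 in replicate 2, and they did not overlap. Meis1 (chr11:18879817-19018985) was lower, with 30.9 and 35.1 TPM, or 33.0 ± 2.93 TPM. It gave the same 16.9% of the Meis TPM in each library.

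The Pknox genes, whose proteins bind Pbx as Meis proteins do, were both among the lower members. Pknox2 (chr9:36890982-37147407) had 24.7 and 26.4 TPM, or 25.6 ± 1.21 TPM, and Pknox1 (chr17:31564734-31607693) had 19.2 and 20.1 TPM, or 19.7 ± 0.636 TPM (SD, n = 2). Both stood close to the median of the detected protein-coding genes, 22.2 TPM.

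Pbx3 (chr2:34171457-34373142) led the 3 Pbx genes, with 58.5 and 62.2 TPM, or 60.4 ± 2.56 TPM. Pbx2 (chr17:34591266-34597400) was the lowest of the 8, with 17.2 and 16.3 TPM, or 16.8 ± 0.615 TPM. Pbx4 (chr8:69832491-69872292), known in adult mice mainly from the testis, ranked below Pbx3 with 37.6 and 35.1 TPM, or 36.4 ± 1.78 TPM (SD, n = 2). It had the fewest reads, 409 and 493 expected counts, against 3427 and 5548 for Meis2. Its effective length, the mean length open to reads over its transcripts, was 582 and 596 bases, the shortest of the 8, against 3158 and 3259 bases for Meis2.

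In the order Meis3, Meis2, Pbx3, Pbx4, Meis1, Pknox2, Pknox1, Pbx2, the library values of Meis2 and Pbx3 overlapped. Pbx3 was slightly higher in replicate 1 and Meis2 was higher in replicate 2. Their deposited bounds overlapped in replicate 1 but not in replicate 2, at 69.9 to 76.9 for Meis2 against 58.7 to 64.4 for Pbx3. The libraries of every other neighbouring pair did not overlap. Pbx4 and Meis1 were separated only by 35.10 TPM in the lower Pbx4 library against 35.09 TPM in the higher Meis1 library. Their deposited bounds overlapped in replicate 2 but not in replicate 1. The deposited bounds of Pknox1 and Pbx2 overlapped in replicate 1, at 18.3 to 22.1 against 16.0 to 19.6, but not in replicate 2.

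**Figure D2:**
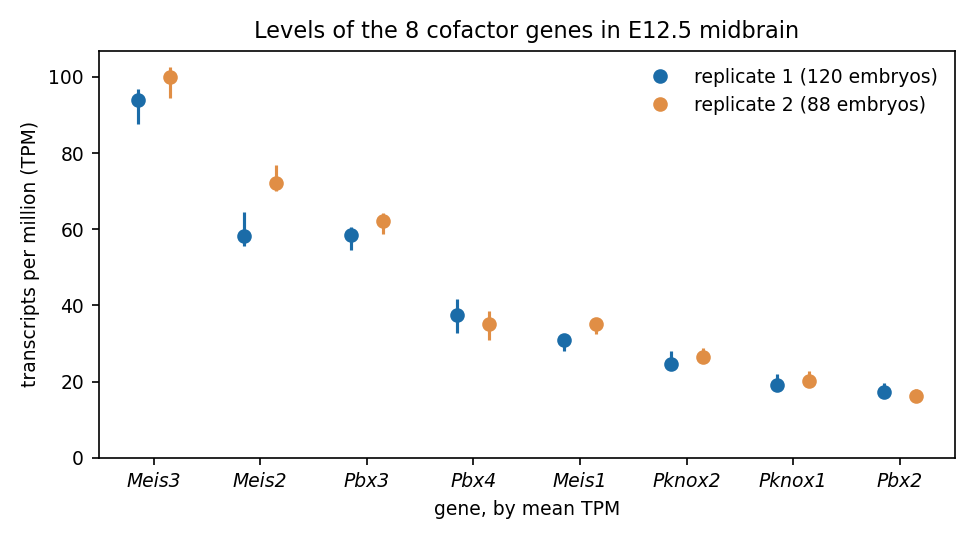
TPM of each gene (vertical axis) in replicate 1, left, and replicate 2, right, with lines for the bounds deposited beside each TPM value. Meis3 lies highest at 93.9 and 100.01 TPM, Pbx2 lowest at 17.2 and 16.3 TPM, and Meis2 has bounds that do not overlap between the libraries.

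Gene totals do not say which proteins the RNA can code, and the annotation lists 89 transcripts for these genes. Of them, 22 took at least 10% of their gene's TPM in either library, and the coding sequence of 14 of the 22 holds the helix codons. A further 5 have no coding sequence and 2 are annotated as targets of nonsense-mediated decay, the pathway that degrades RNA with an early stop codon. Transcripts that code the helix were 67.1% of the members' TPM in replicate 1 and 67.0% in replicate 2. The share was 98.6% and 96.8% for Pbx2, 90.2% and 91.4% for Pknox2, 81.4% and 88.5% for Pknox1, and 79.9% and 78.7% for Pbx3. It was 74.1% and 74.6% for Meis2, 67.9% and 65.4% for Meis3, and 61.7% and 56.4% for Meis1. The exception was Pbx4, with 2.26% in replicate 1 and 1.45% in replicate 2. The Meis1 share counts Meis1-202, which holds the helix codons but is annotated as nonsense-mediated decay, at 0.07 and 0.83 TPM.

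Counted as helix-coding RNA alone, Pbx4 thus had 0.85 TPM in replicate 1 and 0.51 TPM in replicate 2, and it was the only gene of the 8 below 1 TPM. These values rest on 23.3 and 17.5 expected counts. Meis3 stayed first, at 63.7 and 65.4 TPM. Pbx3 and Meis2 changed places between the libraries, with 46.8 and 48.9 TPM for Pbx3 and 43.1 and 53.9 TPM for Meis2. Pbx2 and Pknox1 did so too, with 16.9 and 15.8 TPM for Pbx2 and 15.7 and 17.8 TPM for Pknox1.

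**Figure D3:**
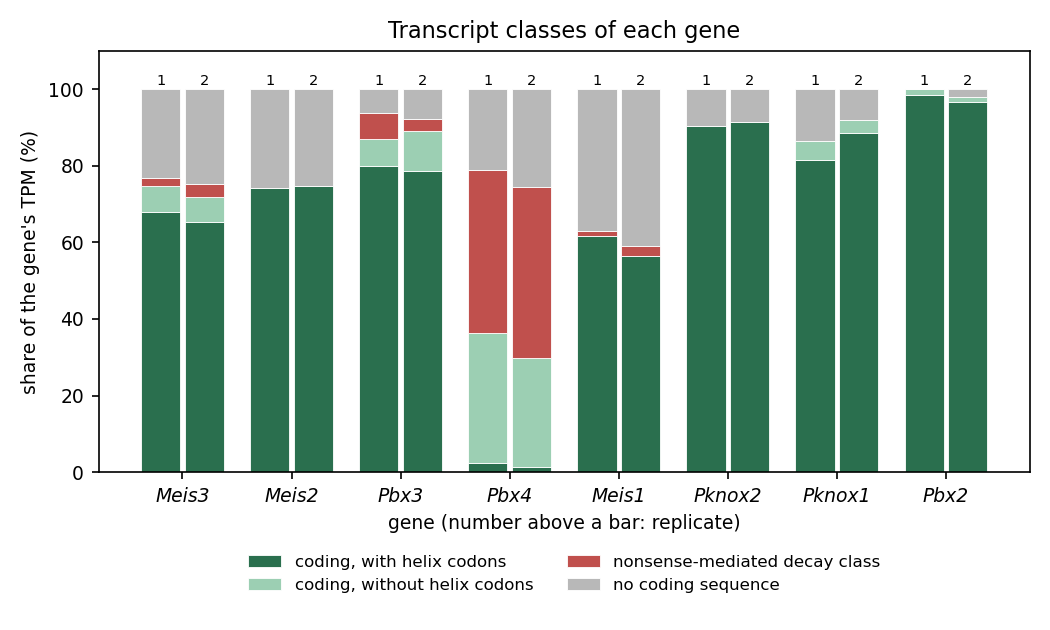
Share of each gene's TPM (vertical axis, percent) from 4 classes of transcript, with replicate 1 left of replicate 2 for each gene. Helix-coding transcripts take over 56% in 7 genes, while in Pbx4 they take 2.26% and 1.45%. Meis1-202, a nonsense-mediated decay transcript that holds the helix codons, is counted as helix-coding.

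Most Pbx4 RNA lacked exon 3 of the full-length transcript (chr8:69864312-69864550, 239 bases). Transcripts that skip it summed to 29.3 TPM in replicate 1 and 26.9 TPM in replicate 2, against the 0.85 and 0.51 TPM of Pbx4-201, the 1 annotated transcript that holds it. Pbx4-202, a fragment of 375 bases annotated as incomplete, had 12.8 and 9.94 TPM. Its annotated exons join the second exon of the gene to an exon downstream of the helix, and the bases around that junction show the missing homeobox (30 bases on each side, capitals for the downstream exon, introns within the coordinate span).
Pbx4-202 (chr8:69859124-69870607, plus strand): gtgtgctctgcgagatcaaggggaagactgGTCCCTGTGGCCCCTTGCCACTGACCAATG
Pbx4-205, a nonsense-mediated decay transcript with 258 coding bases, had 9.56 and 9.89 TPM, and Pbx4-204, with 222 coding bases, had 5.78 and 4.06 TPM. By expected counts Pbx4-205 led in both libraries, with 148 and 194 counts, against 66.1 and 64.7 counts for Pbx4-202.

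Meis1 and Meis2 share an alternative exon of 95 bases after the homeobox. In Meis1-201 and Meis2-206, which include it, the coding sequence ends inside it. In Meis1-209 and Meis2-203, which skip it, the coding sequence gives a longer and different C-terminus. Bases of the exon up to the stop codon, which is in capitals, show how alike the exons of the 2 genes are.
Meis1-201 (chr11:18884024-18884082, minus strand): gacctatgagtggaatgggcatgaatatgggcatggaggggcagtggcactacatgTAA
Meis2-206 (chr2:115866846-115866904, minus strand): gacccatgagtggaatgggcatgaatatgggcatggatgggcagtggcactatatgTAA
Over the whole exon 82 of the 95 bases were the same. In both genes the stop codon starts at base 57 of the exon and leaves 56 codons after the homeodomain in the forms shown. Where the exon is skipped, Meis1-209 has 131 codons there and Meis2-203 has 132. The 2 Meis2 forms compared, Meis2-206 and Meis2-203, both lack a further insert, described next, which brings the counts to 63 in Meis2-205 with the exon and 139 in Meis2-201 without it.

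The exons were used to different extents. In Meis1, transcripts with the exon took 96.0% in replicate 1 and 93.4% in replicate 2 of the TPM of transcripts that either include or skip it. Skipping transcripts summed to 1.04 and 1.77 TPM. Of these, Meis1-209, the form with the longer C-terminus, had 0.54 TPM in replicate 1 and 0 in replicate 2. The rest came from Meis1-202 (0.07 and 0.83 TPM) and Meis1-207 (0.43 and 0.94 TPM), both annotated as nonsense-mediated decay. The transcripts with the exon include Meis1-203, which has no coding sequence, at 6.91 and 7.44 TPM. In Meis2, the share with the exon was 63.6% and 69.1%, and skipping transcripts summed to 16.2 and 17.0 TPM. The lowest Meis1 value therefore lay above the highest Meis2 value.

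Meis2 has a further choice just after the homeobox, an alternative acceptor site that adds 21 bases, or 7 codons, in frame. The added bases are in capitals, with 15 bases on either side and an intron within the coordinate span.
Meis2-205 (chr2:115867344-115868759, minus strand): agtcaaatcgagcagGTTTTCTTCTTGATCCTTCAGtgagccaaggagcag
Transcripts with the insert took 50.9% in replicate 1 and 46.3% in replicate 2, so both forms were about equally common. The deposited bounds on single Meis2 transcripts were wide, and bounds for the share itself were not computed. Meis2-206, which leads in both libraries, had 16.4 and 16.6 TPM with deposited bounds of 1.34 to 16.8 and 4.52 to 23.9. Meis2-201 had 15.2 and 9.35 TPM, with bounds of 1.64 to 15.2 and 0.000201 to 13.4. The retained-intron transcript Meis2-213, which has no annotated coding sequence, had 7.40 TPM in replicate 1 and 9.92 TPM in replicate 2. It was the only 1 of the 22 transcripts whose bounds did not overlap between the libraries.

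Meis3 also has an alternative acceptor site, which adds 51 bases, or 17 codons, ahead of its homeobox and is shown because it is coding and in frame.
Meis3-201 (chr7:16178951-16179001, plus strand): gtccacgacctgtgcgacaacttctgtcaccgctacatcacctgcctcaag
The form with these codons took 69.7% in replicate 1 and 73.9% in replicate 2. Meis3-201, which has them, had 44.4 and 48.3 TPM, and Meis3-205, which lacks them, had 19.3 and 17.1 TPM.

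Pbx3 has a long and a short annotated coding form that differ after the homeodomain. The long form, Pbx3-201, includes an exon of 113 bases and has 137 codons after the homeodomain. The short form, Pbx3-202, skips it, changes frame and ends after 54 codons.
Pbx3-201 (chr2:34176749-34176861, minus strand): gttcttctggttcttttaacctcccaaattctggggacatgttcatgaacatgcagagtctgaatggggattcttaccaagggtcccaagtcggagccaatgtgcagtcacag
The short form was the more abundant, with 33.8 TPM in replicate 1 and 32.3 TPM in replicate 2, and the long form had 13.0 and 16.6 TPM. Over all transcripts that include or skip the exon, 33.2% and 36.3% of TPM included it. That share also counts Pbx3-207, a nonsense-mediated decay transcript with 3.97 TPM in replicate 1 and 1.91 TPM in replicate 2.

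**Figure D4:**
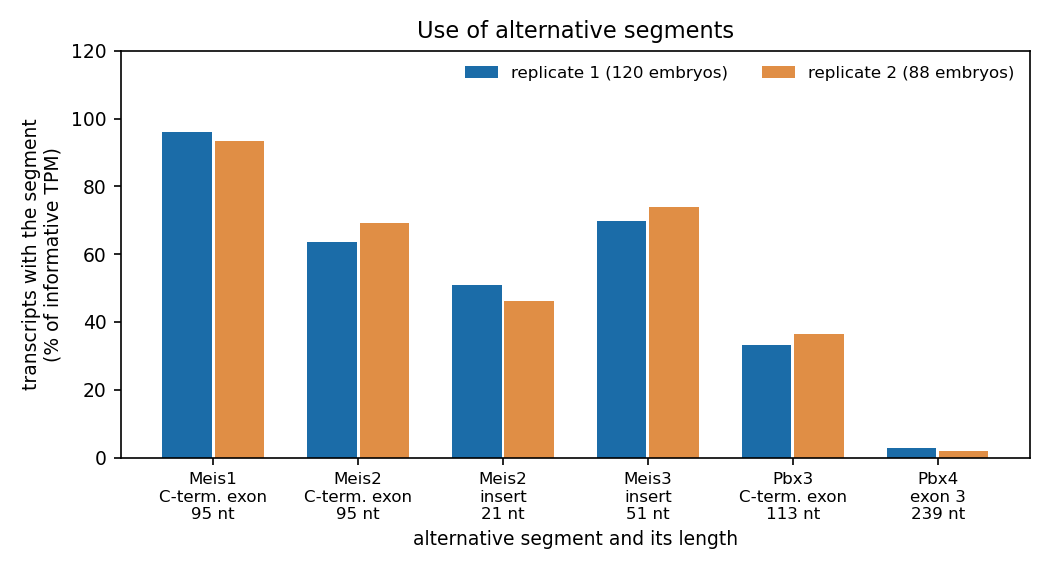
Share of TPM from transcripts that hold each alternative segment, among transcripts that either hold or lack it (vertical axis, percent), with replicate 1 left of replicate 2. The Meis1 exon is included at 96.0% and 93.4%, the Meis2 exon at 63.6% and 69.1%, and exon 3 of Pbx4 at 2.82% and 1.86%.

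In the remaining genes the main transcripts differ ahead of the homeobox or in untranslated exons. Pbx2-201 had 12.1 TPM in replicate 1 and 10.3 TPM in replicate 2. Pbx2-203, with another first exon (chr17:34591266-34591492) and 348 codons in place of 430, had 4.84 and 5.51 TPM. That first exon lies within Gpsm3, a gene on the same strand with 46.7 and 71.7 expected counts, so its reads could be split between the 2 genes. Pknox1-201 took 69.5% and 73.7% of Pknox1. The 3 main Pknox2 transcripts, 201, 202 and 207, have the same coding sequence and summed to over 90% of that gene in each library.

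Other genes that overlap the members, where a library gave them 10 counts or more, held few reads. For Meis1 they were Gm37818, 2610001A08Rik, Gm16140 and Gm16141, with 11.3 to 55.0 counts in replicate 1 and 19.8 to 102 counts in replicate 2, against 1631 and 2332 for Meis1 itself. They were C79798 for Pbx3, AC166172.4 and AC166575.1 for Pknox1, and Gm3896 and Gm48717 for Pknox2, with the most in AC166575.1 at 78 and 117 counts. Meis2, Meis3 and Pbx4 had none. The strand setting of the counting is not given in the sources used here, so reads of antisense pairs may not be separable.

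The pools were compared as replicate 1 over replicate 2. With 1 library per pool there is no test of a difference between pools, and the 95% intervals given (exact conditional binomial, Clopper-Pearson) cover counting error only. Of the 8 genes, 0 differed by 2-fold with an interval excluding equality, against 4.23% of all 19885 genes compared. The interval alone excluded equality for 4 of 8 genes, against 32.3% of all genes. Of these, 3 were lower in replicate 1, against 16.7% of all genes, and 1 was higher, against 15.5%. Deeply counted genes exclude equality more readily, at 42.8% of the 9666 genes with a mean of 500 or more counts. The count for the 8 genes is thus near the background. With an interval that adds the common variation estimated by edgeR (a coefficient of 0.0944), 0 of 8 genes excluded equality, against 7.84% of the genes with counts in both libraries. That coefficient was estimated from these same 2 libraries, so it holds the difference between the pools and is no independent measure of spread.

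Meis2 was lower in replicate 1, at a log2 ratio of -0.33 (interval -0.39 to -0.27). This was larger in size than the ratio of 74% of all genes compared, many of them with fewer counts. The median absolute log2 ratio was 0.139 over all genes and 0.077 over genes with a mean of 500 or more counts. The place of Meis2 among those deeper genes was not computed. Meis1 had -0.15 (-0.24 to -0.06) and Pknox1 -0.11 (-0.22 to -0.0039). Pbx2 was higher in replicate 1, at 0.16 (0.025 to 0.29). The intervals of Meis3 at -0.06, Pbx3 at -0.05, Pknox2 at -0.06 and Pbx4 at 0.09 held equality. The median over the 8 was -0.06, beside -0.01 over all genes compared.

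**Figure D5:**
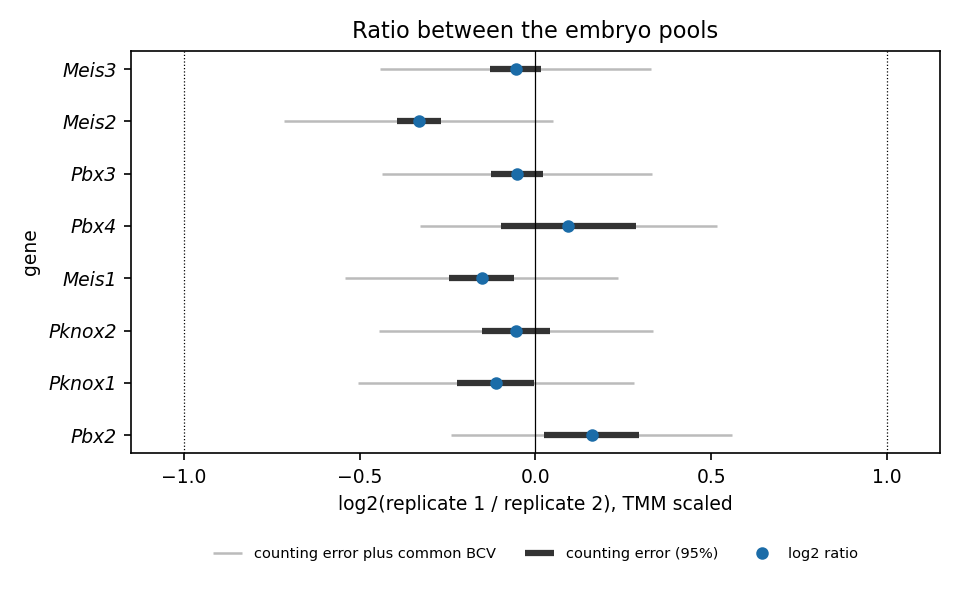
Log2 ratio of replicate 1 over replicate 2 for each gene (points), with the 95% counting interval (thick lines) and the interval that adds the common biological coefficient of variation, BCV (thin lines). Dotted lines mark 2-fold, which no gene reaches, and every thin line crosses 0.

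The pools also differed in markers of other cells and regions. All 6 midbrain markers were detected in both libraries, and Otx2, a regulator of forebrain and midbrain identity, had 145 and 141 TPM. Of these 6, 4 were lower in replicate 1 (En1, En2, Pax7 and Lmx1b) and 2 were higher (Otx2 and Wnt1), with a median log2 ratio of -0.32 and sums of 166 and 164 TPM. None of 5 hindbrain and spinal cord markers reached 1 TPM in both, with Hoxa4 and Hoxb4 at 0. Mesenchyme and meninges markers, none of them at 0, summed to 1000.3 TPM in replicate 1 and 1418 TPM in replicate 2. Of these 8 markers 7 were lower in replicate 1, with a median log2 ratio of -0.40. Meis1, Meis2 and Pknox1 had this direction, as did most of the midbrain and endothelium markers. Erythroid markers were lower in replicate 1 for 2 of 4 and endothelium markers for 2 of 3. Neuron markers were higher in replicate 1 for 3 of 4 and progenitor markers for 2 of 4, and 0 of 4 microglia markers differed beyond counting error. Telencephalon markers were higher in replicate 1 for 5 of 6, summing to 133 and 108 TPM. Diencephalon markers were higher in replicate 1 for 3 of 4, summing to 454 and 294 TPM. Most of these sums came from Tcf7l2, with 421 and 269 TPM. The exception, Rax, was lower in replicate 1, with 1.45 and 2.37 TPM. Pbx2 was higher in replicate 1, as were most of the telencephalon, diencephalon and neuron markers. The part of any of these cells and regions in the ratios above was not tested.

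Other TALE homeobox genes, of the Tgif, Mkx and Irx kinds, were listed beside the members. Of 9, 8 were detected in both libraries. Tgif2, a repressor, was highest, with 57.4 and 60.3 TPM, below Meis3. Irx4 was the exception, with 0.65 and 1.19 TPM. In replicate 1, 4 were lower and 1, Irx2, was higher, with a median log2 ratio of -0.09.

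Homeodomain and paired-domain genes that can act with these cofactors split by family. Of 13 reported here, 9 were detected, and the 4 that were not were all Hox genes, the classical partners of Pbx. The lowest, Hoxa9, had no count in either library. Otx2 was the highest, at 145 and 141 TPM, and the midbrain gene En2 the lowest of those detected, at 1.14 and 1.64 TPM. Pax6, an eye and forebrain regulator, had 57.2 TPM in replicate 1 and 16.9 TPM in replicate 2, a log2 ratio of 1.75 (1.63 to 1.86), and it is named here after its values were seen.

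All 5 genes whose proteins bind, export or turn over TALE proteins were detected. Myh10, a nonmuscle myosin heavy chain that can hold Pbx in the cytoplasm, had 128 and 129 TPM, and Xpo1, the nuclear export receptor, had 126 and 122 TPM. Pbxip1, which binds Pbx proteins and hinders their DNA binding, was the lowest, with 12.3 and 14.0 TPM. It was the 1 gene of the 5 that was lower in replicate 1, at -0.19 (-0.32 to -0.06), and 3 were higher.

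A list of 5 candidate target and retinoid response genes was detected throughout. Crabp1, which binds retinoic acid in the cytoplasm, was highest with 320 and 409 TPM. Cyp26b1, which degrades retinoic acid, had 5.91 and 11.1 TPM, a log2 ratio of -0.88 (-1.04 to -0.72). In replicate 1, 4 of the 5 were lower, with a median of -0.33. The exception was Epha8, an ephrin receptor gene whose midbrain enhancer has been described as bound by Meis proteins, with 8.89 and 8.52 TPM and a log2 ratio of 0.09 (-0.05 to 0.23).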

How the data were processed

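Per the file headers and the manifests deposited with them, each library has gene and transcript tables for annotations M21 and M4 of assembly mm10. The deposited expected counts are unscaled estimates of reads. The deposited TPM is scaled by length and library size over all rows, spike-ins included, and the deposited FPKM by length and fragment number. The deposited percent value is each transcript's share of its gene's TPM. The deposited bounds beside TPM come from the authors' estimation, and their level is not stated. Column names match RSEM output. The tool, its version, the aligner and the strand setting are not given in the sources used here.

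M21 was used throughout, with M4 as an alternative. The libraries held 30274342 (replicate 1) and 38421860 (replicate 2) expected counts. Rows that name no gene, almost all ERCC, took 4.02% and 3.38% of these and were left out of library sizes. Detection meant 1 TPM in both libraries. For ratios, expected counts were rounded, scaled by TMM (edgeR 4.0.16, R 4.3.3) and compared with exact binomial intervals at 95%, for genes with 10 counts in a library. Checked on simulated counts, the script recovered the ratios set. No test over samples was made, since each pool is 1 library, and intervals cover counting error in these libraries only.

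Transcript structures and sequences came from GENCODE M21. Translation in frame (Biopython 1.88) located the recognition helix by a fixed residue pattern, coded by the bases in capitals. A segment's share is the TPM of transcripts holding it over that of transcripts holding or lacking it. The members, gene lists and named items were chosen with earlier results of these data known. All members were named, with transcripts at 10% of their gene, the highest, lowest and exceptional genes of each list and overlapping genes with 10 counts. DESeq2 1.42.0 size factors, total counts and ERCC totals were alternative scalings. Of the gene lists, 1 item is not reported here.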

Additional observations from a re-analysis of the deposited data

How the results depend on the processing

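Both detection in 8 of 8 genes and 0 of 8 past 2-fold held under every alternative run for them. The count of intervals excluding equality stayed at 4 under DESeq2 size factors, total counts, M4 and other count filters, was 6 with ERCC totals, against 62.8% of all genes, and was 0 with the common coefficient of variation added, against 7.84% of genes. ERCC scaling moved the median of all genes to -0.28, and Pbx2 turned to -0.11, above that median. The summed level was 388 TPM when TPM was rescaled over annotated genes only, and 340 to 367 TPM in the libraries taken singly. Helix-coding transcripts took 67.3% of TPM under M4, 67.0% to 67.1% in single libraries, and 79.4% of expected counts, an alternative chosen after seeing the data. The cause of these differences was not tested. The leading transcript was shared by 7 of 8 genes under M4, with Pbx4 the exception. The shares of the alternative segments moved by less than their SD under M4, also chosen after seeing the data. No paired analysis was possible because the study has only 1 group. Depth limits Pbx4 most, with 23.3 and 17.5 helix-coding counts.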
